A study of Saccharomyces cerevisiae with 18 samples.

Results

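A pair of chromatin mutants of budding yeast was set directly against each other: RNA-seq of a BRE1 deletion strain (bre1Δ) and of a SET2 deletion strain (set2Δ), both collected at day 4, across all genes of the count table. The contrast holds 6 of the 18 libraries of the series, 3 of bre1Δ and 3 of set2Δ, chosen by their labels, and no wild-type library enters it. Both strains are labelled as derivatives of BY4742, a haploid alpha laboratory strain, were grown in YPD medium at 30 °C from a diluted overnight culture and had no further treatment. Polyadenylated RNA was sequenced. The labels do not say how many clones of each deletion were used or whether the replicates were separate cultures, so the p-values measure only the spread between these libraries, which may be technical. The same 2 strains at day 1 and the wild type (WT) at day 4 are used below only beside the day 4 values.

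Bre1 is the ubiquitin ligase that, with the conjugating enzyme Rad6, attaches ubiquitin to histone H2B in transcribed genes, a mark needed for methylation of histone H3 by the COMPASS complex and by Dot1. Set2 travels with elongating RNA polymerase and methylates lysine K36 of histone H3, which the deacetylase complex Rpd3S reads to keep gene bodies deacetylated and silent for internal promoters. A yeast culture kept for days after the sugar is used up ages chronologically: cells stop dividing, respire ethanol, store carbohydrate and express stress genes under Msn2, Msn4 and Gis1.

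Levels are in CPM, read counts scaled to library size with TMM factors, and are not scaled for gene length. A ± after a mean CPM is the SD of 3 libraries. Log2 fold changes are bre1Δ over set2Δ with their SE from edgeR. Every gene said to be higher, lower, risen or fallen passed an adjusted p of 0.05 in edgeR's quasi-likelihood test with Benjamini-Hochberg adjustment over 6320 genes, and the strain named first in such a statement is bre1Δ. Where RNA comes from a whole culture, fewer cells of a kind and less RNA per cell cannot be told apart.

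The deleted genes matched the labels. SET2 (YJL168C, chromosome X, 102227 to 104428) had 38.1, 45.3 and 42.6 CPM in bre1Δ, against 0.602, 0.426 and 0.209 CPM in set2Δ (2460 reads against 15, a 110.0-fold higher level in bre1Δ with a 95% counting interval of 66.6 to 197). For BRE1 (YDL074C, chromosome IV, 324047 to 326149) the bre1Δ libraries together held 2 reads and the set2Δ libraries 4861, a 3620-fold lower level (interval 1000 to 29900). No library held more than 5 reads of LEU2, LYS2 or URA3, auxotrophic markers of BY4742. HIS3, of which BY4742 carries a partly deleted allele, was read in all, with 55.8, 55.5 and 58.1 CPM in bre1Δ, against 17.6, 16.4 and 15.8 CPM in set2Δ (1.78 ± 0.10), beside 27.98 ± 1.119 CPM in WT. The mating type was less plain: the alpha-specific receptor gene STE3 averaged 41.2 ± 2.46 CPM in bre1Δ and 38.7 ± 1.69 CPM in set2Δ, and the a-specific receptor gene STE2 27.5 ± 0.838 CPM in bre1Δ and 40.7 ± 2.55 CPM in set2Δ. WT averaged 45.3 ± 1.82 CPM of STE3 and 13.4 ± 1.58 CPM of STE2. The a-specific MFA1 averaged 17.8 CPM in bre1Δ and 37.0 CPM in set2Δ, beside 30.7 CPM in WT, and STE6 was read in both mutants as well. Other a-specific genes were low: BAR1 averaged 7.45 CPM in bre1Δ and 5.65 CPM in set2Δ, ASG7 6.70 and 1.37 CPM, and MFA2 4.62 and 7.53 CPM. The alpha-specific MF(ALPHA)1 averaged 37.3 CPM in bre1Δ and 57.6 CPM in set2Δ, and MF(ALPHA)2 22.0 and 38.3 CPM. Library totals were 12500920 to 29514490 counts in bre1Δ and 8038470 to 15752126 in set2Δ. Replicates 1 and 3 of bre1Δ lay close to counting error, with a chi-square of 1.52 per gene where counting error alone gives about 1, whereas the pairs with replicate 2 gave 10.2 and 14.6 and the set2Δ pairs 4.70 to 6.60. Summing these 2 libraries into 1 left 5220 genes past the threshold.

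In this direct contrast 5315 of 6320 genes, 84.1%, passed the threshold, 2683 higher (42.5%) and 2632 lower (41.6%) in bre1Δ. At least 2-fold differences were found for 2117 genes (33.5%), of which 1155 were higher (18.3%) and 962 lower (15.2%). For 5416 genes (85.7%) all 3 libraries of one strain lay above all 3 of the other, bre1Δ above in 43.5% of all genes and set2Δ above in 42.2%. With most genes called, a count of called members in a gene list says little unless it leans to one side, so each list is given with its count in both directions and its median log2 fold change. The median over all genes was 0.01.

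**Figure D1:**
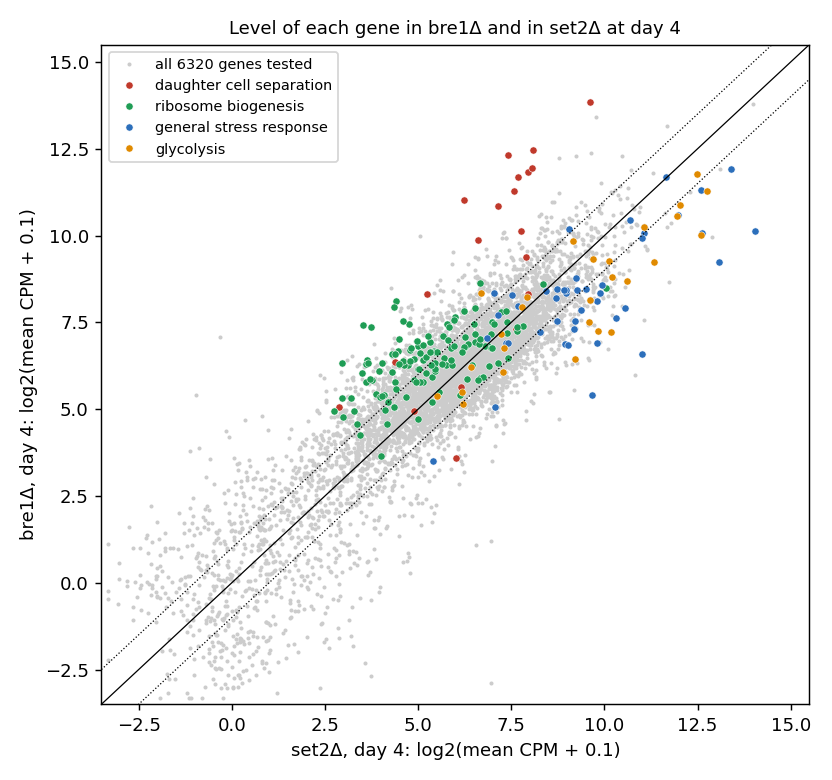
Mean level of each of the 6320 tested genes at day 4, as log2(mean CPM + 0.1), in bre1Δ (vertical axis) and in set2Δ (horizontal axis); the solid line marks equal levels and the dotted lines a 2-fold difference. Most daughter cell separation genes lie far above the line, ribosome biogenesis genes mostly above it, and general stress and glycolysis genes mostly below it.

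The genes by which a newborn daughter cell cuts itself from its mother were higher in bre1Δ by large factors at high levels. Of the 20 genes of daughter cell separation, 16 were higher and 3 lower, with a median log2 fold change of 3.18, and together they took 4.71 to 4.98% of all counts in bre1Δ libraries, against 0.356 to 0.387% in set2Δ libraries. DSE2 (YHR143W, chromosome VIII, 385510 to 386487), for a secreted protein that degrades the wall from the daughter side, had 5199, 5009 and 5255 CPM in bre1Δ, against 178, 177 and 154 CPM in set2Δ, a log2 fold change of 4.93 ± 0.27 (adjusted p = 3.09e-13, edgeR). The chitinase gene CTS1 (YLR286C, chromosome XII, 708448 to 710136) had 14777, 14216 and 14861 CPM in bre1Δ, against 829, 807 and 722 CPM in set2Δ (4.22 ± 0.23). DSE1 (YER124C, chromosome V, 407342 to 409063), for another daughter-specific protein, had 5735, 5311 and 5819 CPM in bre1Δ, against 282, 267 and 261 CPM in set2Δ (4.38 ± 0.22). Every bre1Δ library lay more than 10 times above every set2Δ library for these genes.

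The same direction held for further septum-degrading and cell wall proteins. SUN4 (YNL066W, chromosome XIV, 501515 to 502777), a cell wall protein related to glucanases, had 2170.3, 1855 and 2234 CPM in bre1Δ, against 88.5, 71.9 and 63.2 CPM in set2Δ (4.82 ± 0.26). EGT2 (YNL327W, chromosome XIV, 24048 to 27173), a wall protein needed for clean separation, had 3481, 3019 and 3449 CPM in bre1Δ, against 218, 212 and 191 CPM in set2Δ (4.003 ± 0.25). The glucanase-like SCW11 (YGL028C, chromosome VII, 441281 to 442909) had 3761, 3428 and 3802 CPM in bre1Δ, against 262, 253 and 233 CPM in set2Δ (3.88 ± 0.27). In SUN4, EGT2 and SCW11 replicate 2 was the lowest of the bre1Δ libraries. PRY3 (YJL078C, chromosome X, 291336 to 293981), a sterol-binding wall protein, had 4122, 3485 and 4175 CPM in bre1Δ, against 289, 252 and 252 CPM in set2Δ (3.89 ± 0.18). The endoglucanase gene DSE4 (3.71 ± 0.20), AMN1 (3.70 ± 0.19), whose product antagonises mitotic exit, DSE3 (3.29 ± 0.15) and ASH1 (2.39 ± 0.11), the daughter-specific repressor of HO, were higher as well. HO itself was also higher (2.22 ± 0.15), with a mean of 33.3 CPM in bre1Δ and 7.28 CPM in set2Δ. PCL9, a cyclin of the Pho85 kinase in early G1, had 312, 322 and 322 CPM in bre1Δ, against 37.2, 39.4 and 36.96 CPM in set2Δ (3.07 ± 0.12).

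Not all genes of late mitosis followed. SWI5, for an activator of genes expressed from late mitosis into G1, had 9.74, 13.03 and 13.3 CPM in bre1Δ, against 64.8, 65.3 and 64.1 CPM in set2Δ, a fall by 2.41 on the log2 scale. CBK1, for a kinase of cell separation and polarised growth, was slightly lower (-0.32 ± 0.05), and its partner MOB2 did not pass the test (0.05 ± 0.10, adjusted p = 0.686). CLB1, a mitotic cyclin, had 18.4, 16.9 and 15.2 CPM in bre1Δ, against 50.3, 50.9 and 49.6 CPM in set2Δ (-1.60 ± 0.08). CDC5, the polo kinase (-1.66 ± 0.07) and CHS2 (-2.40 ± 0.08), the chitin synthase of the primary septum, were lower as well. PCL1 had 69.7, 50.3 and 68.7 CPM in bre1Δ, against 4.58, 5.72 and 4.74 CPM in set2Δ (3.63 ± 0.16), so that the G1 cyclin genes PCL1 and PCL9 were higher, while CLB1, CDC5 and CHS2 were lower. Over the 29 genes of the list of G1 cyclins and cell cycle, 12 were higher and 12 lower (median -0.12).

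**Figure D2:**
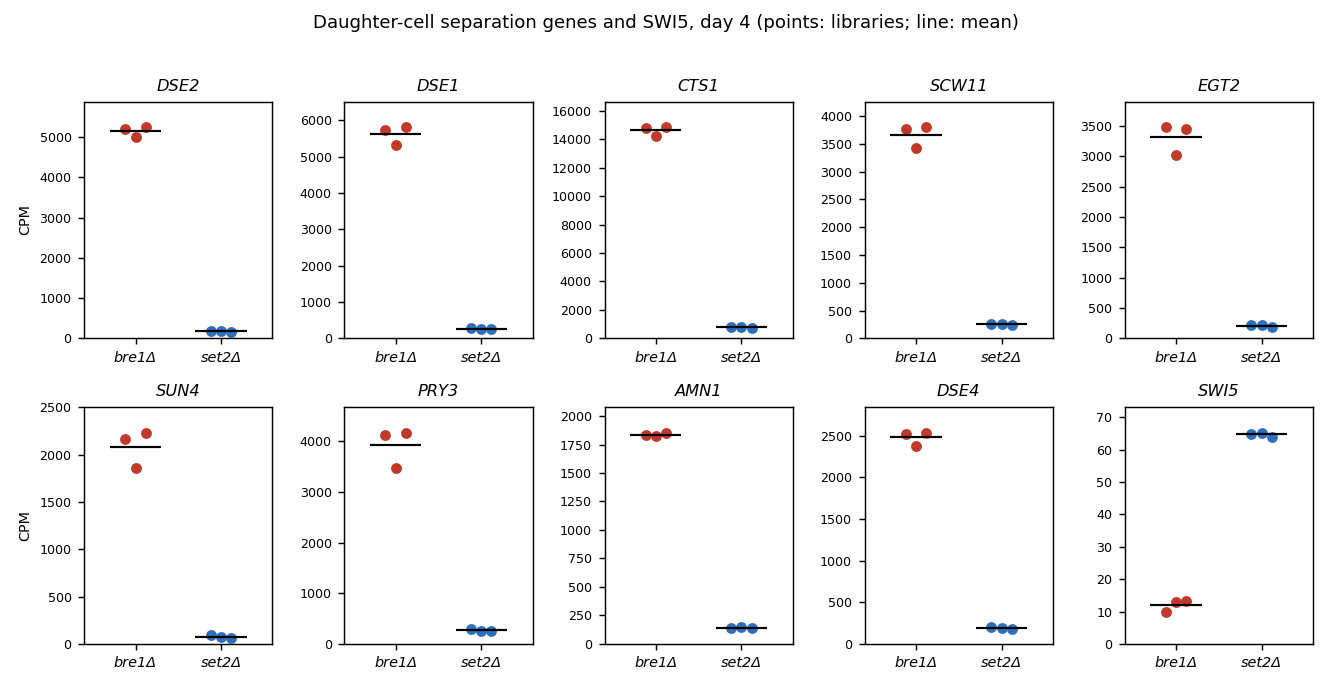
CPM of 10 genes in each of the 3 bre1Δ libraries (red, left) and the 3 set2Δ libraries (blue, right) at day 4, with the group mean as a line; each panel has its own axis from 0. The 9 daughter cell separation genes shown beside SWI5 are higher in every bre1Δ library, while SWI5 is lower in every bre1Δ library.

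Set beside WT at day 4, the median log2 fold change of the list was 2.49 in bre1Δ against WT and -0.56 in set2Δ against WT, comparisons that share the WT libraries. DSE2 averaged 5154 ± 129 CPM in bre1Δ and 169.7 ± 13.2 CPM in set2Δ, beside 196 ± 26.4 CPM in WT (SD, n = 3 each). CTS1 averaged 14618 ± 350.3 CPM in bre1Δ and 786 ± 56.5 CPM in set2Δ, beside 1329 ± 80.98 CPM in WT. At day 1 the difference between the strains was smaller, with a median of 0.46. The difference between the days passed the test for 17 of the 20 genes. For 15 of them the log2 fold change of bre1Δ over set2Δ was larger at day 4. Among these were CTS1 (day 4 minus day 1 3.27 ± 0.29) and PRY3 (3.36 ± 0.24).

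Stretches of promoter sequence show where the short motif ACCAGC, which Swi5 binds, stands before some of these genes. Sequences are RefSeq R64, the assembly of the sacCer3 build the authors used, read 5′ to 3′ on the strand of the gene, 120 bases long and at least 100 bases before the start codon. Capitals mark the motif or its reverse complement.
DSE2: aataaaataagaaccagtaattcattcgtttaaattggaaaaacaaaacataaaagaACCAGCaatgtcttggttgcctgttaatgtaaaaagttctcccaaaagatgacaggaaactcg
DSE1: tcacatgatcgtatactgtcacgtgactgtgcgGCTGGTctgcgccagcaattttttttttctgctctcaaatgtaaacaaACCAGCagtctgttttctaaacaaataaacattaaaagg
EGT2: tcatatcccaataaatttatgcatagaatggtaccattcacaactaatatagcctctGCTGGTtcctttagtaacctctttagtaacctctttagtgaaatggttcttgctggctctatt
PRY3: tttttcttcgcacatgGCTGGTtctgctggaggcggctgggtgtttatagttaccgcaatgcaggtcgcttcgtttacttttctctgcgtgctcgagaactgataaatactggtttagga
These windows are chrVIII:385032-385151 on the plus strand for DSE2, chrV:409423-409542 on the minus strand for DSE1, chrXIV:23606-23725 on the plus strand for EGT2 and chrX:294362-294481 on the minus strand for PRY3. Within 500 bases before the start codon the motif, searched on both strands, was found in 9 of the 20 promoters of the list (45.0%), against 775 of 5824 promoters of all tested protein-coding genes (13.3%). DSE1 held 3 matches, DSE2 and EGT2 held 2 each, and the same window of CTS1, SCW11 and SUN4 held none. Among genes at least 2-fold higher in bre1Δ the share was 16.5%, and among those at least 2-fold lower 9.23%.

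Genes for making ribosomes were mostly higher in bre1Δ. Of 127 ribosome biogenesis genes 104 were higher and 19 lower (median 1.16), and of 139 cytosolic ribosomal protein genes 118 were higher and 9 lower (median 1.02). The ribosomal protein list held 8.21 to 8.38% of the counts in bre1Δ libraries, against 4.29 to 4.42% in set2Δ libraries. The proteins that bind box C/D snoRNAs and direct methylation of ribosomal RNA differed by large factors. NOP58 (YOR310C, chromosome XV, 896825 to 898360) had 178, 161 and 171 CPM in bre1Δ, against 11.2, 12.4 and 10.3 CPM in set2Δ (3.91 ± 0.07, adjusted p = 4.97e-20 in edgeR). The fibrillarin gene NOP1 (YDL014W, chromosome IV, 427364 to 428347) had 288, 239 and 305 CPM in bre1Δ, against 21.8, 22.2 and 19.5 CPM in set2Δ (3.72 ± 0.10). NOP56 had 242, 253 and 241 CPM in bre1Δ, against 20.1, 20.4 and 20.2 CPM in set2Δ (3.60 ± 0.05). These 3 proteins and Snu13 (3.62 ± 0.11) form the core of one particle, and all 4 genes were more than 10-fold higher in bre1Δ.

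Factors of large-subunit assembly rose as well. The GTPase gene NOG1 (2.93 ± 0.07), NOC2 (2.71 ± 0.07) and RLP24 (2.53 ± 0.06) were higher in every bre1Δ library than in any set2Δ library. The exceptions included the giant ATPase gene REA1, with 349, 374 and 353 CPM in bre1Δ, against 1032, 1046 and 1069.9 CPM in set2Δ (-1.55 ± 0.07), and the helicase gene SPB4 (-0.83 ± 0.07). Subunits of RNA polymerase I, which transcribes ribosomal RNA, were on the same side. RPA49 had 75.9, 76.3 and 75.6 CPM in bre1Δ, against 10.96, 11.4 and 8.23 CPM in set2Δ (2.90 ± 0.09), RPA12 differed by 2.996 ± 0.14 and RPA135 by 2.06 ± 0.08. Over the 35 genes of RNA polymerases I and III, 21 were higher and 10 lower (median 0.32).

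Among ribosomal proteins RPS28B had 324, 325 and 317 CPM in bre1Δ, against 46.1, 40.96 and 40.9 CPM in set2Δ (2.93 ± 0.08), and RPS9B had 773, 783 and 767 CPM in bre1Δ, against 166, 173 and 179.6 CPM in set2Δ (2.16 ± 0.05). Paralogs did not all move together. RPL31B (-1.19 ± 0.07) and RPL36B (-2.07 ± 0.15) were lower in bre1Δ, and RPL36B had 2.92, 4.34 and 3.62 CPM in bre1Δ, against 16.9, 14.3 and 14.8 CPM in set2Δ. For RPL1A (2.26 ± 0.06) and RPS8B (2.19 ± 0.07) 81.0% and 75.1% of the 50-base windows of the gene occur elsewhere in the genome, so their values are uncertain between copies. The mitochondrial ribosome went the other way, with 14 of 78 genes higher and 41 lower (median -0.20).

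The time at which the biogenesis genes separated the strains differed from that of the ribosomal proteins. At day 1 the median of the biogenesis list was 0.08, with 58 higher and 46 lower. The difference between the days passed the test with a larger log2 fold change at day 4 for 104 of 127 genes. Ribosomal protein genes were already higher at day 1 (median 1.33, 134 higher and 1 lower). For them the difference between the days passed the test with a smaller log2 fold change at day 4 for 75 of 139 genes. It passed with a larger one for 27. Against WT at day 4 the biogenesis list had a median of 1.23 in bre1Δ and 0.04 in set2Δ, and the ribosomal proteins 1.46 in bre1Δ and 0.42 in set2Δ, with the WT libraries shared. NOP58 averaged 170.1 ± 8.65 CPM in bre1Δ and 11.3 ± 1.09 CPM in set2Δ, beside 60.4 ± 1.22 CPM in WT, so that the strains stood on either side of WT. The SNU13 mean was 164 ± 7.48 CPM in bre1Δ and 13.3 ± 1.42 CPM in set2Δ, beside 110.2 ± 4.24 CPM in WT.

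The PAC motif, GATGAG, is a known promoter element of ribosome biogenesis and RNA polymerase I genes and was added to the search after the values were seen. It is shown for 3 of the genes above, in capitals on either strand.
NOP58: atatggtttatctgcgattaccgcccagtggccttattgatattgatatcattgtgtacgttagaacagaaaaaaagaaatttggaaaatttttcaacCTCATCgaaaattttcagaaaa
NOP1: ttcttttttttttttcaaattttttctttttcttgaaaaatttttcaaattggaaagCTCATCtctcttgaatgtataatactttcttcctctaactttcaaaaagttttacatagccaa
RPA49: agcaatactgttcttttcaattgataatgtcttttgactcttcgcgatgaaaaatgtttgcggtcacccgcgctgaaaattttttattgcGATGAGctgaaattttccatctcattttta
The windows are chrXV:898461-898580 on the minus strand for NOP58, chrIV:427103-427222 on the plus strand for NOP1 and chrXIV:182709-182828 on the minus strand for RPA49. Within 500 bases of the start codon GATGAG was found in 113 of 127 promoters of the biogenesis list (89.0%) and in 22 of 35 of the polymerase list (62.9%), against 27.9% of all promoters. The share was 34.1% among genes at least 2-fold higher in bre1Δ and 26.7% among those at least 2-fold lower.

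Stress genes showed the reverse. Of 46 genes of the general stress response 38 were lower in bre1Δ and 6 higher (median -1.13), and of 22 stationary phase genes 20 were lower and 2 higher (median -1.14). The 22 stationary phase genes took 1.71 to 1.93% of the counts in bre1Δ libraries, against 6.41 to 6.67% in set2Δ libraries. CTT1 (YGR088W, chromosome VII, 654634 to 656322), the cytosolic catalase, had 94.6, 94.1 and 100.5 CPM in bre1Δ, against 2105, 2061 and 2053 CPM in set2Δ, a level 21.5-fold lower (-4.42 ± 0.09, adjusted p = 6.72e-20 in edgeR). GRE1 (YPL223C, chromosome XVI, 128632 to 129138), a hydrophilin made under drying and salt stress, had 1039, 1279 and 1074 CPM in bre1Δ, against 18024, 16497 and 15783 CPM in set2Δ (-3.89 ± 0.11). Its relative in function SIP18 (YMR175W, chromosome XIII, 611016 to 611255) had 612, 621 and 596 CPM in bre1Δ, against 8427, 8709.6 and 8669 CPM in set2Δ (-3.82 ± 0.10). The strains did not overlap for any of these.

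Other members repeated this order. ALD3 (YMR169C, chromosome XIII, 599352 to 600872), a stress-induced aldehyde dehydrogenase of which 40.4% of 50-base windows occur elsewhere in the genome, had 42.6, 40.7 and 43.5 CPM in bre1Δ, against 790.0, 843 and 807 CPM in set2Δ (-4.26 ± 0.09). SPG1, named for its need in stationary phase, had 353, 505 and 364 CPM in bre1Δ, against 3598, 3519 and 3106 CPM in set2Δ (-3.07 ± 0.12). The glutathione peroxidase gene GPX1 (-2.92 ± 0.07), the reticulon gene RTN2 (-2.63 ± 0.06) and the heat shock gene HSP30 (-2.53 ± 0.10) were lower too. The small heat shock proteins gave smaller differences at very high levels: HSP12 had 2389, 2790.0 and 2420.0 CPM in bre1Δ, against 6321, 6077 and 6282 CPM in set2Δ, and HSP26 had 3655, 4162 and 3713 CPM in bre1Δ, against 10908, 10882 and 10589 CPM in set2Δ. HOR7, also of this list, was one of the abundant genes with the least difference, at 3383, 2840.2 and 3576 CPM in bre1Δ, against 3403, 3032 and 3265 CPM in set2Δ (0.01 ± 0.08, adjusted p = 0.873).

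The regulators were mixed. MSN4 was higher in bre1Δ, with 326, 312 and 332 CPM, against 129, 127 and 136 CPM in set2Δ (1.31 ± 0.08), while MSN2 differed little (0.21 ± 0.06). The kinase gene RIM15 (-1.03 ± 0.05), which acts upstream of these factors on entry into quiescence, and GIS1 (-1.19 ± 0.04) were lower. Protein kinase A and TOR genes were lower as well, with TPK2 at -0.998 ± 0.05 and TOR2 at -1.07 ± 0.05, whereas PDE2, which degrades cyclic AMP, had 78.6, 72.6 and 79.5 CPM in bre1Δ, against 13.5, 14.8 and 16.1 CPM in set2Δ (2.37 ± 0.09). Of 31 genes of lifespan signalling 19 were lower and 10 higher (median -0.35).

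Against WT at day 4, the stress list had a median of -1.22 in bre1Δ and -0.07 in set2Δ, with the WT libraries shared. CTT1 averaged 96.4 ± 3.55 CPM in bre1Δ and 2073 ± 27.8 CPM in set2Δ, beside 869.9 ± 5.29 CPM in WT, which lay between the strains. GRE1 likewise averaged 1131 ± 129.7 CPM in bre1Δ and 16768 ± 1145 CPM in set2Δ, beside 8693 ± 222 CPM in WT. At day 1 the median of the stress list was -0.40 and that of the stationary phase list 0.03. Oxidative stress genes were lower in 20 of 31 cases and higher in 9, with the peroxiredoxin gene AHP1 at -1.75 ± 0.07 and the glutaredoxin gene GRX2 at -1.59 ± 0.05. GRX2 overlaps EMI1 on the other strand by 47 bases, and the strand setting of the counting is not given in the sources used here.

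Chaperones were split, with 15 of 34 higher and 15 lower (median 0.04). Among the higher ones, SSB1, the ribosome-bound chaperone, had 251, 224 and 253 CPM in bre1Δ, against 26.02, 22.8 and 21.1 CPM in set2Δ (3.40 ± 0.11), and SSA2 differed by 2.63 ± 0.12, with 43.2% and 58.2% of their windows shared with other genes. The stress-induced SSA4 (-2.06 ± 0.09), BTN2 (-2.02 ± 0.09) and APJ1 (-2.57 ± 0.06) were lower. Proteasome genes were lower in 25 of 36 cases and higher in 8 (median -0.29), whereas at day 1 31 were higher and 4 lower (median 0.49).

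Msn2 and Msn4 bind AGGGG, which is marked in capitals on either strand in promoters of 3 of the genes that fell.
CTT1: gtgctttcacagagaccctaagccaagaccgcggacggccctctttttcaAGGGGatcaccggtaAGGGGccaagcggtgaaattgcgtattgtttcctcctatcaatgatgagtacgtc
SIP18: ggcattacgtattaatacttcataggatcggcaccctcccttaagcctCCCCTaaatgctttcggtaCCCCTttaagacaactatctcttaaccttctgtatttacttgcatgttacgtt
ALD3: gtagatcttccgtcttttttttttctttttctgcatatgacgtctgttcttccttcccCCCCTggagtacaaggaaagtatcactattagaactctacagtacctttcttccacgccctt
The windows are chrVII:654206-654325 on the plus strand for CTT1, chrXIII:610580-610699 on the plus strand for SIP18 and chrXIII:601173-601292 on the minus strand for ALD3. AGGGG was present within 500 bases before the start codon in 36 of 46 promoters of the general stress list (78.3%) and in 14 of 22 of the stationary phase list (63.6%), against 34.4% of all promoters. It was found in 44.0% of promoters of genes at least 2-fold lower in bre1Δ and in 30.5% of those at least 2-fold higher. The promoter of GRE1 held none in that window.

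**Figure D3:**
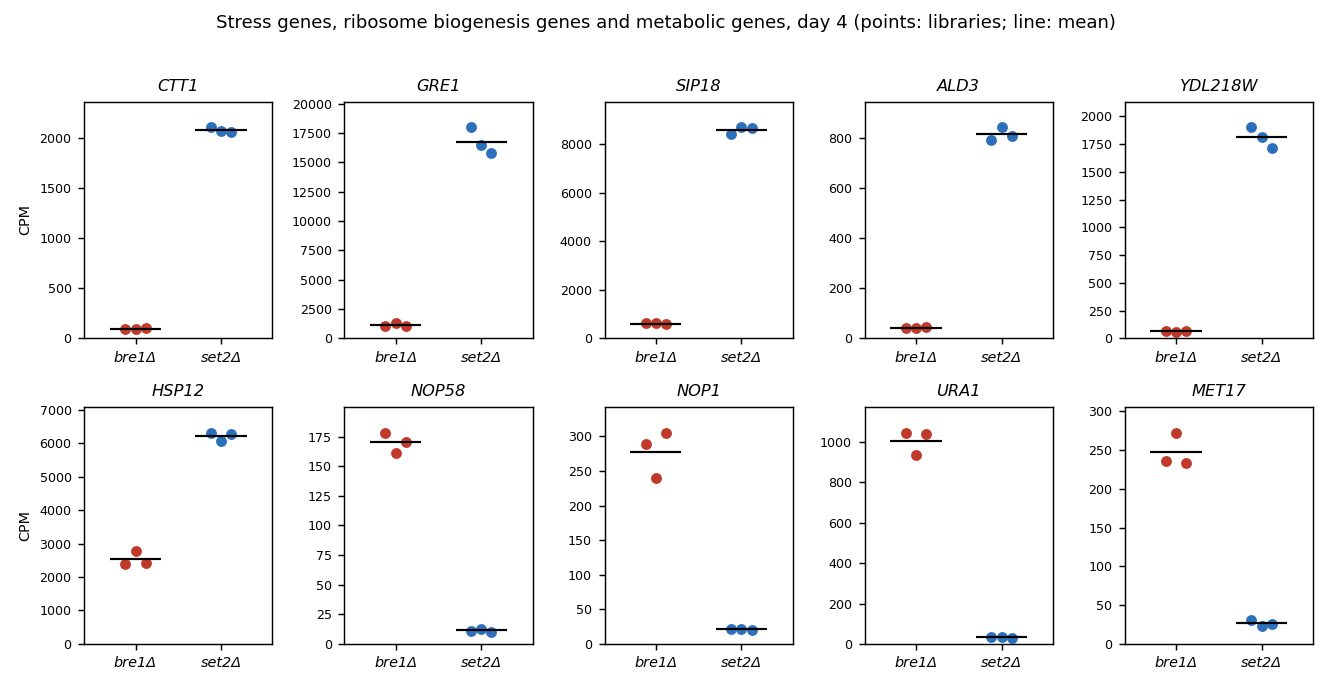
CPM of 10 genes in each of the 3 bre1Δ libraries (red, left) and the 3 set2Δ libraries (blue, right) at day 4, with the group mean as a line; each panel has its own axis from 0. The stress genes CTT1, GRE1, SIP18, ALD3 and HSP12 and the uncharacterised YDL218W are lower in every bre1Δ library, and NOP58, NOP1, URA1 and MET17 are higher in every bre1Δ library.

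Central carbon metabolism separated the strains by route. Glycolysis genes were lower in bre1Δ in 21 of 27 cases and higher in 4 (median -1.07), respiratory chain genes were lower in 37 of 44 and higher in 4 (median -0.96), and genes of the glyoxylate cycle, gluconeogenesis and acetate use were higher in 23 of 27 and lower in 4 (median 1.19). GPM1, the phosphoglycerate mutase, had 155, 153 and 149 CPM in bre1Δ, against 922, 864 and 931 CPM in set2Δ (-2.57 ± 0.07). TDH2, a glyceraldehyde phosphate dehydrogenase with 31.3% of its windows shared with its paralogs, had 154, 137 and 161 CPM in bre1Δ, against 1196, 1159 and 1119 CPM in set2Δ (-2.94 ± 0.11). ADH1, which makes ethanol, had 1103, 885 and 1144 CPM in bre1Δ, against 6218, 6299.9 and 6174 CPM in set2Δ (-2.58 ± 0.10). The strains did not overlap in any of the 3, and replicate 2 was the lowest bre1Δ library for TDH2 and ADH1.

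The pyruvate kinase gene CDC19 (-2.07 ± 0.16) and the enolase genes ENO1 (-2.10 ± 0.15) and ENO2 (-1.90 ± 0.12) followed, while TDH3 fell less (-0.73 ± 0.11). HXK2, the main hexokinase on glucose, was an exception, with 345, 280.4 and 348 CPM in bre1Δ, against 101, 102 and 108 CPM in set2Δ (1.64 ± 0.10), and HXK1 was on the side of the list (-1.47 ± 0.08). HXT5, a hexose transporter of slow-growing cells, had 956, 1041 and 960.0 CPM in bre1Δ, against 7594, 7747 and 7357 CPM in set2Δ (-2.94 ± 0.09). At day 1 glycolysis genes stood on the other side, with 16 higher and 8 lower in bre1Δ (median 0.35), and the difference between the days was negative and past the threshold for 22 of 27 genes.

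Of the acetate and ethanol genes, ACS2, the acetyl-CoA synthetase that also serves histone acetylation, had 757, 709.5 and 767 CPM in bre1Δ, against 59.98, 62.998 and 61.2 CPM in set2Δ (3.60 ± 0.10). MDH2, the cytosolic malate dehydrogenase, had 1104, 1081 and 1099 CPM in bre1Δ, against 168, 158 and 148 CPM in set2Δ (2.79 ± 0.08). The carrier gene SFC1 (2.65 ± 0.09), the acetate and ammonium transporter gene ATO2 (2.33 ± 0.10) and the activator gene SIP4 (2.18 ± 0.10) were higher too. Not every step agreed in direction, since PCK1, the first committed enzyme of gluconeogenesis, had 858, 737 and 876 CPM in bre1Δ, against 2216, 2167 and 2099.8 CPM in set2Δ (-1.39 ± 0.10), and the activator gene CAT8 was lower (-1.49 ± 0.07). ADH2, which oxidises ethanol, was higher by 0.74 ± 0.12 at day 4 and by 5.78 ± 0.14 at day 1, and ACS1 by 0.85 ± 0.07 at day 4 and by 2.57 ± 0.07 at day 1.

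Most respiratory genes were lower in bre1Δ. COX5A, of cytochrome c oxidase, had 319, 295 and 316 CPM in bre1Δ, against 1239.8, 1287 and 1248 CPM in set2Δ (-2.02 ± 0.07), and averaged 2509 ± 28.4 CPM in WT. QCR10, of the cytochrome bc1 complex, had 310.1, 309.6 and 304 CPM in bre1Δ, against 1222, 1265 and 1197 CPM in set2Δ (-1.997 ± 0.07), and averaged 2097 ± 107 CPM in WT. The list median against WT at day 4 was -1.71 in bre1Δ and -0.93 in set2Δ. The 2 cytochrome c genes were both lower in bre1Δ, CYC1 at -1.86 ± 0.09 and CYC7 at -1.99 ± 0.08, as was ATP19 of the ATP synthase (-2.07 ± 0.08). SDH3 (0.72 ± 0.07), COR1 (0.46 ± 0.06) and the external NADH dehydrogenase gene NDE2 (0.52 ± 0.06) were higher, and in succinate dehydrogenase this left SDH3 higher while SDH2 (-0.94 ± 0.08) and SDH4 (-0.90 ± 0.06) were lower. TCA cycle genes had no common direction (8 higher and 9 lower of 20, with a median that changed sign in 4 alternatives), although CIT3, a mitochondrial citrate synthase, had 591, 623 and 587 CPM in bre1Δ, against 149.8, 136 and 136 CPM in set2Δ (2.10 ± 0.12).

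Storage carbohydrate genes were lower in 13 of 22 cases and higher in 6 (median -0.53). PIG2, a targeting subunit of the phosphatase that activates glycogen synthase, had 119, 121 and 124 CPM in bre1Δ, against 763, 763 and 789 CPM in set2Δ (-2.66 ± 0.05). TPS1, the trehalose phosphate synthase, was lower (-1.14 ± 0.06), while GSY2, the main glycogen synthase, had 2026, 1955 and 2039 CPM in bre1Δ, against 399, 384 and 368 CPM in set2Δ (2.39 ± 0.09). In peroxisomal fatty acid oxidation the acyl-CoA synthetase gene FAA4 (2.13 ± 0.06) and the ATP carrier gene ANT1 (2.20 ± 0.06) were higher and the thiolase gene POT1 lower (-1.71 ± 0.08), with 8 higher and 13 lower of 23.

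Lists of amino acid, nucleotide and sterol synthesis had more members higher than lower in bre1Δ. The dihydroorotate dehydrogenase gene URA1 (YKL216W, chromosome XI, 25215 to 26159), for the fourth step of pyrimidine synthesis, had 1047, 936 and 1041 CPM in bre1Δ, against 33.6, 33.4 and 31.5 CPM in set2Δ, a 30.8-fold higher level (4.94 ± 0.07, adjusted p = 2.93e-22 in edgeR). WT averaged 30.1 ± 0.799 CPM, near set2Δ (32.8 ± 1.19 CPM) and far from bre1Δ (1008 ± 62.6 CPM). The other steps moved less: URA2, for the first, was higher by 1.55 ± 0.08 and URA4 by 1.23 ± 0.06, and URA8, for CTP synthesis, was lower (-1.09 ± 0.06). Both strains lack URA3 by their background, for the last step of the pathway. Over pyrimidine and purine synthesis 16 of 27 were higher and 9 lower (median 0.22).

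Amino acid biosynthesis genes were higher in 46 of 63 cases and lower in 9 (median 0.91). THR1, the homoserine kinase, had 183, 163 and 186 CPM in bre1Δ, against 26.7, 27.3 and 26.7 CPM in set2Δ (2.72 ± 0.10). HOM2, of the same pathway, had 317, 317 and 318 CPM in bre1Δ, against 69.7, 63.9 and 72.04 CPM in set2Δ (2.21 ± 0.07). ARG4, the argininosuccinate lyase, had 199, 223 and 199 CPM in bre1Δ, against 48.1, 48.6 and 50.1 CPM in set2Δ (2.08 ± 0.07). All 3 genes were higher in every bre1Δ library, and LEU4 (2.33 ± 0.16), ILV5 (2.32 ± 0.10) and TRP5 (1.89 ± 0.05) were among the others. GCN4, whose product activates this group and is set mainly by translation, was higher by 0.74 ± 0.06. GDH3, a glutamate dehydrogenase of stationary cells, did not pass the test (1912, 1580.2 and 1988 CPM in bre1Δ, against 2126, 1918 and 1915 CPM in set2Δ, adjusted p = 0.227).

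In sulfur metabolism 17 of 33 genes were higher and 9 lower (median 0.23). MET17, which joins sulfide to O-acetylhomoserine, had 236, 273 and 234 CPM in bre1Δ, against 31.2, 23.5 and 25.03 CPM in set2Δ (3.25 ± 0.15). MET6, the methionine synthase, had 332, 363 and 339 CPM in bre1Δ, against 49.02, 49.5 and 46.5 CPM in set2Δ (2.83 ± 0.12), and SAH1, which removes S-adenosylhomocysteine, differed by 2.68 ± 0.09. The low-affinity methionine permease gene MUP3 was the opposite case, with 23.2, 24.1 and 21.5 CPM in bre1Δ, against 149, 129.9 and 131 CPM in set2Δ (-2.58 ± 0.07). Nitrogen catabolite repression genes were higher in 21 of 30 cases and lower in 8 (median 0.81): the activator gene GAT1 had 686, 553 and 693 CPM in bre1Δ, against 104, 92.2 and 96.4 CPM in set2Δ (2.73 ± 0.17), and the general amino acid permease gene GAP1 had 967, 953 and 994 CPM in bre1Δ, against 174, 159.6 and 156 CPM in set2Δ (2.58 ± 0.07).

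Gcn4 binds TGACTC and Cbf1 binds CACGTG, and both motifs are shown in capitals for genes just described.
HOM2: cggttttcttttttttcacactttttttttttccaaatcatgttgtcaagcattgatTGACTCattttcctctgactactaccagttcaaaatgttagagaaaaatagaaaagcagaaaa
ARG4: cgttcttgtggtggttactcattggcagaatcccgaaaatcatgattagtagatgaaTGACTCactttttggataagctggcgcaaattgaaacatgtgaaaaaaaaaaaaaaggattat
MET17: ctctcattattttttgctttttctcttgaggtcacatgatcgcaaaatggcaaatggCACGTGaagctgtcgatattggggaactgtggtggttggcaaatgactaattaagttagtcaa
The windows are chrIV:770116-770235 on the plus strand for HOM2, chrVIII:141519-141638 on the minus strand for ARG4 and chrXII:732185-732304 on the plus strand for MET17. TGACTC was found within 500 bases before the start codon in 41 of 63 amino acid promoters (65.1%), against 12.8% of all promoters, but in 11.7% of promoters of genes at least 2-fold higher in bre1Δ. CACGTG, also read by Pho4, was found in 21 of 33 sulfur promoters (63.6%), against 6.22% of all and 6.17% of those at least 2-fold higher. The URA1 promoter held no TGACTC in that window. Matches of GATGAG and TGACTC can overlap by 3 bases, and shorter overlaps between the other motifs are possible.

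Sterol genes were higher in 22 of 29 cases and lower in 6 (median 0.86), with the methyltransferase gene ERG6 at 1.95 ± 0.09, the reductase gene NCP1 at 1.95 ± 0.10 and the lanosterol synthase gene ERG7 on the other side (-1.45 ± 0.05). In NAD synthesis the nicotinic acid transporter gene TNA1 had 658, 676 and 663 CPM in bre1Δ, against 100.4, 91.2 and 87.2 CPM in set2Δ (2.85 ± 0.05), and BNA4, of synthesis from tryptophan, differed by 2.68 ± 0.10, while the nicotinamidase gene PNC1 was lower (-1.05 ± 0.06). Of 22 sirtuin and NAD genes 11 were higher and 8 lower (median 0.19). Iron regulon genes were lower in 21 of 33 cases and higher in 8 (median -0.42), with the siderophore transporter gene ARN2 at -2.13 ± 0.07 and the heme oxygenase gene HMX1 at 2.09 ± 0.11. The zinc sensor gene ZAP1 had 60.9, 62.1 and 60.96 CPM in bre1Δ, against 303, 274 and 288 CPM in set2Δ (-2.23 ± 0.06).

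At the cell surface, several enzymes that build the glucan and chitin network were higher in bre1Δ and adhesins lower. CRH1, which links chitin to glucan, had 679, 593 and 691 CPM in bre1Δ, against 96.4, 100.3 and 94.8 CPM in set2Δ (2.75 ± 0.07), and the glucan-elongating GAS1 (1.78 ± 0.06) and GAS5 (1.86 ± 0.06) and SCW10 (2.33 ± 0.10) were higher. The mannoprotein gene CCW12 had 5689, 4679.8 and 5456 CPM in bre1Δ, against 928, 769 and 708 CPM in set2Δ (2.72 ± 0.13). PSA1, which makes the GDP-mannose for wall proteins, had 11405, 9744 and 11518 CPM in bre1Δ, against 893, 889 and 821 CPM in set2Δ (3.65 ± 0.19). Over the 54 genes of cell wall and integrity pathway 30 were higher and 17 lower (median 0.26), and CWP2, an abundant mannoprotein, did not pass the test (-0.02 ± 0.08, adjusted p = 0.799).

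All 6 genes of the flocculin list were lower in bre1Δ (median -2.14). FLO10 had 46.1, 41.6 and 48.3 CPM in bre1Δ, against 393, 372 and 357 CPM in set2Δ (-3.04 ± 0.08). FLO11, of filaments and biofilms, had 18.9, 19.996 and 20.9 CPM in bre1Δ, against 165, 155 and 149 CPM in set2Δ (-2.96 ± 0.10). FLO9 differed by -2.59 ± 0.06, FLO5 by -1.69 ± 0.09 and FLO1 by -1.56 ± 0.10, with 12.8% (FLO10) to 63.4% (FLO9) of the windows of these 5 adhesin genes found elsewhere in the genome. FLO10 averaged 45.3 ± 3.44 CPM in bre1Δ and 374 ± 17.8 CPM in set2Δ, beside 33.4 ± 4.12 CPM in WT, and FLO11 averaged 19.9 ± 0.964 CPM in bre1Δ and 156 ± 7.67 CPM in set2Δ, beside 30.2 ± 1.57 CPM in WT. FLO9 and FLO1 had another order: FLO9 averaged 25.9 ± 0.204 CPM in bre1Δ and 156 ± 5.69 CPM in set2Δ, beside 149 ± 2.6996 CPM in WT, and FLO1 averaged 28.8 ± 4.23 CPM in bre1Δ and 86.7 ± 4.75 CPM in set2Δ, beside 135 ± 5.79 CPM in WT. For FLO10 and FLO11 set2Δ was thus the strain farther from WT, and for FLO9 and FLO1 it was bre1Δ. FLO8, also on the list, is not an adhesin gene but that of an activator of FLO11, and is annotated as a pseudogene in the reference genome. It has a described internal promoter and had 51.9, 50.3 and 52.1 CPM in bre1Δ, against 109, 105 and 104 CPM in set2Δ (-1.05 ± 0.06).

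The list of genes with described internal (cryptic) promoters, which Set2 is known to hold silent, had 8 of 14 members lower and 4 higher in bre1Δ (median -0.37, and -0.03 once the trend with gene length was removed). STE11 had 81.1, 77.96 and 83.2 CPM in bre1Δ, against 233, 233 and 235 CPM in set2Δ (-1.53 ± 0.05), and averaged 135 ± 0.814 CPM in WT. LCB5 had 56.9, 63.5 and 60.4 CPM in bre1Δ, against 115, 123 and 113 CPM in set2Δ (-0.96 ± 0.06), and averaged 24.1 ± 1.2002 CPM in WT. Counts per gene do not tell full transcripts from those that start inside the gene. AVO1 (-0.93 ± 0.05), PCA1 (-0.81 ± 0.06) and VPS72 (-0.51 ± 0.05) were lower, SSK22 (1.39 ± 0.07) and DCP2 (0.60 ± 0.05) were higher, and OMS1 (0.12 ± 0.08, adjusted p = 0.139) and NUP1 (0.03 ± 0.05, adjusted p = 0.63) did not pass the test. The calls of SYF1 (0.14 ± 0.06), KAR9 (0.14 ± 0.06) and SMC3 (-0.22 ± 0.10), with adjusted p of 0.0494, 0.047 and 0.0484 in edgeR, were lost in some of the alternatives tried.

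Of 25 genes of H3K36 methylation, Rpd3S and histone chaperones 17 were lower and 6 higher in bre1Δ (median -0.42), SET2 itself being one of the higher. RTT106, a histone H3 and H4 chaperone, had 76.8, 78.9 and 82.5 CPM in bre1Δ, against 243, 257 and 254 CPM in set2Δ (-1.66 ± 0.04), and HPC2 of the HIR complex differed by -1.25 ± 0.06. Of Rpd3S, EAF3 (-1.12 ± 0.06) and RCO1 (-1.12 ± 0.06) were lower, and RCO1 is overlapped by YMR075C-A on the other strand. Of 25 genes of H2B ubiquitination, Paf1 complex, COMPASS and DOT1 12 were lower, BRE1 among them, and 8 higher (median -0.14, and -0.07 without set2Δ replicate 3), a share of lower genes near the 41.6% of all genes. LGE1, whose product works with Bre1, had 166, 147 and 175 CPM in bre1Δ, against 401, 359 and 349 CPM in set2Δ (-1.18 ± 0.07), the COMPASS gene BRE2 was lower (-1.03 ± 0.06), and CDC73 of the Paf1 complex was higher (0.74 ± 0.05).

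Histone genes had no common direction, with 3 of 11 higher and 5 lower. The divergent pair HTA1 and HTB1 split: HTA1, for H2A, had 892, 891 and 919.6 CPM in bre1Δ, against 463, 484 and 460.2 CPM in set2Δ (0.94 ± 0.05), and HTB1, for H2B, had 359, 385 and 362 CPM in bre1Δ, against 1127, 1168 and 1136 CPM in set2Δ (-1.63 ± 0.06). WT averaged 829 ± 1.504 CPM of HTA1, nearer to bre1Δ (901 ± 16.3 CPM) than to set2Δ (469 ± 12.8 CPM). It averaged 1063 ± 23.9 CPM of HTB1, nearer to set2Δ (1143 ± 21.5 CPM) than to bre1Δ (369 ± 14.4 CPM). HHT1, for H3, had 476, 499 and 462 CPM in bre1Δ, against 1426, 1477 and 1441 CPM in set2Δ (-1.60 ± 0.06), whereas its copy HHT2 did not pass the test (0.01 ± 0.08, adjusted p = 0.921). Libraries were selected for polyadenylated RNA.

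Mating genes were lower in 15 of 31 cases and higher in 9 (median -0.09). SAG1, the alpha-agglutinin, had 72.3, 73.8 and 74.5 CPM in bre1Δ, against 222, 217 and 207 CPM in set2Δ (-1.55 ± 0.06), and FIG2 differed by -1.57 ± 0.07. The MAP kinase gene KSS1, of filamentous growth, had 78.4, 71.4 and 78.1 CPM in bre1Δ, against 21.6, 19.1 and 19.3 CPM in set2Δ (1.94 ± 0.07), and FUS3, the kinase of the mating branch, differed by 0.22 ± 0.08. The Ste12 motif TGAAAC was found in 25 of 31 promoters of this list (80.6%), against 30.0% of all. Of 39 meiosis and sporulation genes 18 were higher and 13 lower: IME1, the master regulator of entry into meiosis, had 117, 118 and 113 CPM in bre1Δ, against 25.3, 26.2 and 24.5 CPM in set2Δ (2.19 ± 0.10), while RED1 (-2.07 ± 0.06), for a protein of the meiotic chromosome axis, and ZIP1 (-1.78 ± 0.08), for the transverse filament of the synaptonemal complex, were lower. RED1 averaged 30.1 ± 0.683 CPM in bre1Δ and 127 ± 4.68 CPM in set2Δ, beside 18.6 ± 0.634 CPM in WT.

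Next to BRE1, AHK1 was lower in bre1Δ (-0.68 ± 0.07) and the snoRNA gene SNR63 did not pass the test (0.34 ± 0.25, adjusted p = 0.213). Next to SET2, ASG7 was higher in bre1Δ (2.28 ± 0.29), as was ERG20 on its other side (0.85 ± 0.05).

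Several of the 30 genes with the largest rises and falls are small or uncharacterised genes. YDL218W (YDL218W, chromosome IV, 66493 to 67446) had 64.6, 59.1 and 64.1 CPM in bre1Δ, against 1904, 1818 and 1714 CPM in set2Δ (-4.85 ± 0.17), beside 239 ± 9.12 CPM in WT. YMR175W-A (YMR175W-A, chromosome XIII, 611314 to 611508), which starts 58 bases after the end of SIP18 on the same strand, had 1.88, 2.25 and 2.51 CPM in bre1Δ, against 101, 129 and 143 CPM in set2Δ (-5.77 ± 0.18). The difference lay on the same side as that of SIP18, and reads of the 2 cannot be assumed to be separate. PGA2 (-4.54 ± 0.21), MTC7 (-4.18 ± 0.19), YMR173W-A (-5.58 ± 0.22) and YBR226C (-4.15 ± 0.27) were lower at levels of at most 2.02 ± 0.536 CPM in bre1Δ, and MRPL51 (-3.96 ± 0.14) overlaps YPR099C on the other strand. Among the rises, YNL277W-A (4.20 ± 0.22) and YOR316C-A (4.49 ± 0.26) are short open reading frames, tP(AGG)C (4.79 ± 0.19) is a transfer RNA gene and FDH1 (3.95 ± 0.41), a formate dehydrogenase gene, shares 84.2% of its windows with another locus. RDN5-1, a 5S ribosomal RNA gene with all its windows shared, had 123, 152 and 133 CPM in bre1Δ, against 0.843, 0.852 and 0.418 CPM in set2Δ.

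RNAs without a long poly(A) tail had no common direction. RDN5-1 was higher in bre1Δ, while SCR1 and most snoRNA genes were lower. Of the 71 transfer RNA genes tested, out of 264 in the count table, 31 were higher and 11 lower. Structured RNA genes took 0.0865 to 0.0905% of counts in bre1Δ libraries, against 0.185 to 0.353% in set2Δ libraries. SCR1, the RNA of the signal recognition particle, had 26.03, 23.8 and 28.1 CPM in bre1Δ, against 462, 199 and 664 CPM in set2Δ (-4.07 ± 0.37), and set2Δ libraries differed among themselves more than 3-fold. Of 74 snoRNA genes 40 were lower and 17 higher (median -0.66, and -1.79 with a filter of 5 CPM), and of the 19 with at least 20 CPM in one strain 17 were lower and 1 higher. The part that capture of such RNAs played in any result was not tested. Ty genes were lower in 29 of 43 cases and higher in 5 (median -1.23, and -0.41 by limma on log2(FPKM + 1)), and the 13 with at least 20 CPM in one strain had a median of -2.25. Their copies share nearly all their sequence (98.5% of windows of YJR027W), so single elements cannot be told apart.

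The strains were compared at day 1 as well, in other libraries. There 5015 genes (79.4%) passed the threshold, 2487 higher (39.4%) and 2528 lower (40.0%) in bre1Δ, and 1289 (20.4%) differed at least 2-fold, 674 of them higher (10.7%) and 615 lower (9.73%). Genes past the threshold at both days numbered 3283 in the same direction and 1024 in opposite directions. The difference between the days itself passed the test for 4535 genes (71.8%). The log2 fold change of bre1Δ over set2Δ was larger at day 4 for 2319 (36.7%) and smaller for 2216 (35.1%). The difference between the days was at least 2-fold for 1549 genes (24.5%), larger at day 4 for 823 (13.0%) and smaller for 726 (11.5%). Across genes, which are not independent replicates, Spearman's rho between the log2 fold changes of the 2 days was 0.558 as a description.

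**Figure D4:**
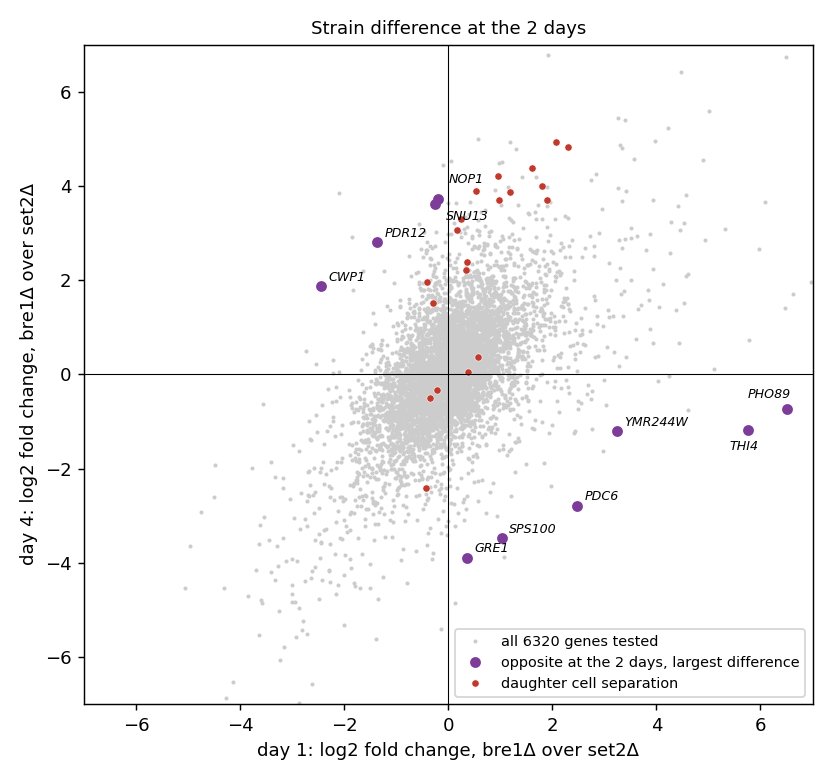
Log2 fold change of bre1Δ over set2Δ at day 1 (horizontal) and at day 4 (vertical) for 6320 tested genes, 5 of which lie outside the axes; red points are the 20 daughter cell separation genes and purple points the 10 genes past the threshold at both days in opposite directions with the largest difference between the days. Most daughter genes lie higher on the day 4 axis than on the day 1 axis, and the purple points lie in the quadrants of opposite sign.

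Of the genes in opposite directions, PHO89 and THI4 changed most. PHO89, a sodium phosphate symporter, averaged 2564 ± 85.2 CPM in bre1Δ and 28.1 ± 2.71 CPM in set2Δ at day 1 (6.51 ± 0.17), and at day 4 412 ± 22.7 CPM in bre1Δ and 679.8 ± 13.9 CPM in set2Δ (-0.72 ± 0.13). THI4, for the thiazole part of thiamine, averaged 974 ± 202 CPM in bre1Δ and 17.98 ± 1.705 CPM in set2Δ at day 1 (5.76 ± 0.17), and at day 4 3879 ± 251 CPM in bre1Δ and 8819 ± 238 CPM in set2Δ (-1.19 ± 0.13). For both, bre1Δ was ahead at day 1 and set2Δ at day 4. The pyruvate decarboxylase gene PDC6 (2.48 ± 0.11 at day 1, -2.78 ± 0.10 at day 4), GRE1 (0.36 ± 0.10 and -3.89 ± 0.11), the spore wall gene SPS100 (1.03 ± 0.13 and -3.48 ± 0.14) and YMR244W (3.25 ± 0.22 and -1.20 ± 0.12) had the same order, and SPS100 is overlapped by SUT169 on the other strand.

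CWP1, PDR12, NOP1 and SNU13 had the opposite order. CWP1, a wall mannoprotein, averaged 48.03 ± 5.02 CPM in bre1Δ and 261 ± 33.1 CPM in set2Δ at day 1 (-2.44 ± 0.10), and at day 4 139 ± 3.81 CPM in bre1Δ and 38.3 ± 5.498 CPM in set2Δ (1.87 ± 0.11). The weak acid pump gene PDR12 averaged 37.1 ± 3.34 CPM in bre1Δ and 95.6 ± 0.409 CPM in set2Δ at day 1 (-1.36 ± 0.09), and at day 4 1084 ± 119.8 CPM in bre1Δ and 156 ± 6.43 CPM in set2Δ (2.80 ± 0.09). At day 4 bre1Δ was ahead for both, with no overlap between its libraries and those of set2Δ. The wider thiamine list was split at day 4, with 5 higher and 9 lower of 22. Of the near-identical copies THI5, THI12, THI11 and THI13, THI5 differed by 1.53 ± 0.14, THI12 by 1.42 and THI11 by 0.67. THI13 did not pass the test (0.11), and 60.0% (THI13) to 85.0% (THI5) of the windows of these copies are shared. The thiamine transporter gene THI7 differed by 1.39 ± 0.07 and THI72 by -1.37 ± 0.06.

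**Figure D5:**
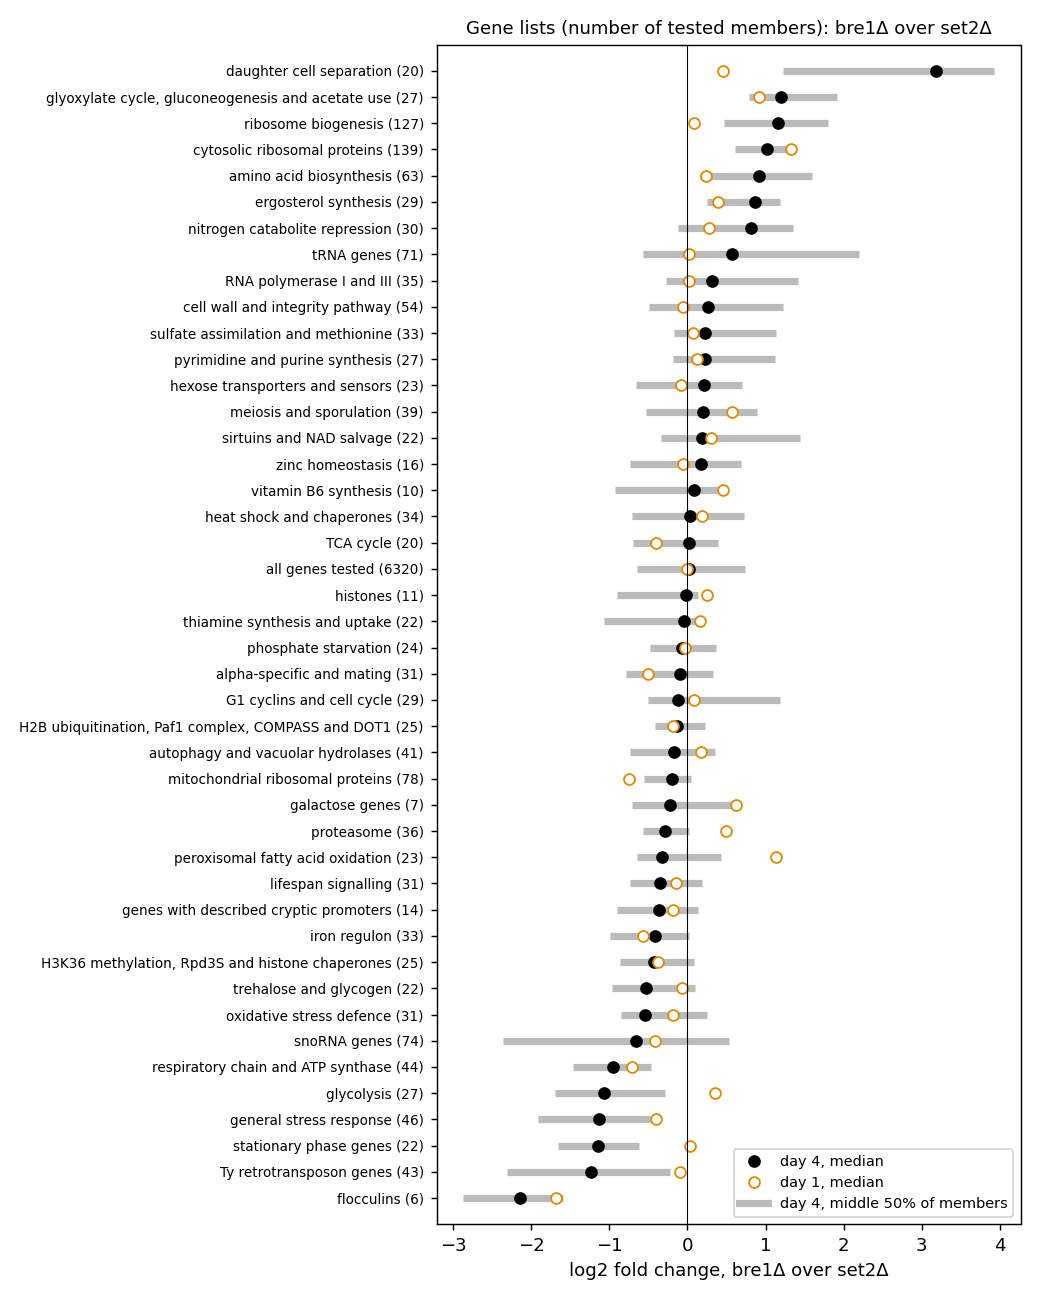
Median log2 fold change of bre1Δ over set2Δ in each gene list at day 4 (black) and at day 1 (open orange), with the middle 50% of members at day 4 as a grey bar and the number of tested members in brackets. Daughter cell separation has the highest median at day 4 (3.18) and the flocculins the lowest (-2.14), and glycolysis has medians on opposite sides at day 4 (-1.07) and day 1 (0.35).

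Most of the remaining lists had medians near that of all genes. Autophagy and vacuolar hydrolase genes were higher in 13 and lower in 21 of 41 cases (median -0.17), with the receptor gene ATG39 at -2.13 ± 0.05 and the vacuolar protease gene PEP4, at 2054, 1921 and 2064 CPM in bre1Δ, against 683, 664 and 622 CPM in set2Δ, on the other side (1.62 ± 0.06). Phosphate starvation genes were higher in 8 and lower in 12 of 24 (median -0.07), vitamin B6 genes higher in 3 and lower in 4 of 10, and galactose genes higher in 2 and lower in 4 of 7. Hexose transporter genes were higher in 9 and lower in 8 of 23, and zinc genes higher in 8 and lower in 7 of 16. Transfer RNA genes were an exception, higher in 31 and lower in 11 of 71 (median 0.56, from -0.17 to 1.45 over the alternatives). Of all genes 42.5% were higher and 41.6% lower. Only these 71 of the 264 transfer RNA genes of the count table passed the filter on low counts. Together they held 0.0107 to 0.0112% of the counts in bre1Δ libraries, against 0.00565 to 0.00583% in set2Δ libraries.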

How the data were processed

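RNA-seq of polyadenylated RNA was made from 18 yeast libraries. Per the submitters' processing notes, the authors used FastQC 0.11.8, cutadapt 2.6, STAR 2.7.0b, the sacCer3 build, HTSeq 2.0.2, R 4.2.0 and DESeq2 1.36.0, and the strand setting is not given in the sources used here. The deposited tables hold raw counts per gene and FPKM, per the file headers. Of 6837 identifiers, 6320 passed filterByExpr. The lengths behind FPKM were within 2% of the reference gene for 99.72% of 5993 genes. 4 rows with emptied names were left out.

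Counts of all 18 libraries were fitted in edgeR 4.0.16 (R 4.3.3) with TMM scaling and a mean for each of 6 groups. Quasi-likelihood F tests, two-sided, were adjusted by Benjamini-Hochberg over 6320 genes with a threshold of 0.05. The contrasts were bre1Δ over set2Δ at day 4, at day 1 and the difference of the 2, and each deletion over WT at day 4. The biological coefficient of variation was 6.22%. Counting intervals are exact at 95% and cover counting error only. The pipeline was tested on simulated data. Alternatives were DESeq2 1.42.0, limma 3.58.1 on log2(FPKM + 1) and log2(FPKM + 0.1), other scalings and filters, a replicate block, removal of a length trend and leaving out each library.

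The members and lists were chosen with earlier results of these data known. Named genes were the deleted, neighbouring, marker and mating genes, the 15 largest rises and falls (at least 20 CPM, libraries not overlapping), in each list up to 6 genes of lowest p, 10 genes opposite at the 2 days and 3 abundant genes with little difference. Chosen after their values were seen were DSE4, AMN1, CBK1, MOB2, PSA1, RPA12, RPL31B, RPL36B, REA1, HSP12, HSP26, HSP30, MSN2, MSN4, CDC19, ENO1, ENO2, TDH3, HXK2, PCK1, ACS1, ADH2, CYC1, COR1, NDE2, GCN4, LEU4, ILV5, CCW12, THI5 and YJR027W, and the PAC motif. HO, THI11, THI12 and THI13 were also chosen after their values were seen. Promoters are the 500 bases before each start codon.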

Additional observations from a re-analysis of the deposited data

Results flagged for a closer look

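The strain difference depended on the day for many genes. The test of the difference between day 4 and day 1 (edgeR, Benjamini-Hochberg) passed for 4535 genes. For the 10 genes named for opposite directions, the day 4 difference minus the day 1 difference was -7.24 for PHO89, -6.94 for THI4, -5.26 for PDC6, -4.51 for SPS100, -4.45 for YMR244W and -4.25 for GRE1 on the log2 scale. It was 4.31 for CWP1, 4.17 for PDR12, 3.92 for NOP1 and 3.88 for SNU13. All 10 were chosen for this difference, so the values describe them.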

How the results depend on the processing

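Across 19 alternatives, the genes past the threshold at day 4 numbered 4978 to 5398, and every gene called in both had the same direction. The counts of genes were within 1.5 times the values given. Summing bre1Δ replicates 1 and 3, an alternative chosen after seeing the data, gave 5220. Leaving out each library gave 5165 to 5287 genes. No pairing by replicate number was seen. The correlations of deviations of same-numbered libraries were 0.0663, 0.0249 and -0.0901, and those of other pairs -0.109 to 0.0976. With 3 libraries per strain, they cannot settle whether same-numbered libraries were handled together. With the replicate number as a block 5305 genes were called over 18 libraries and 5255 over the 6 compared. Of the list medians, 71 values moved by more than the spread between libraries and 7 changed sign. Those that changed sign lay near 0, apart from tRNA genes: the median of TCA cycle to -0.0138 with median of ratios scaling and with DESeq2, to -0.0257 without set2Δ replicate 3 (0.0454 at most without 1 library) and to -0.0829 after removal of the length trend; the median of tRNA genes to -0.1658 with at least 5 CPM in 3 libraries, the median of heat shock and chaperones to -0.0439 without bre1Δ replicate 2 (0.0781 at most without 1 library), and the median of vitamin B6 synthesis to -0.0317 after removal of the length trend. Smaller moves across 0 were those of the median of histones (-0.0179, up to 0.0276 with upper quartile scaling), the median of thiamine synthesis and uptake (-0.0392, and 0.0059 with upper quartile scaling) and, after removal of the length trend, the median of heat shock and chaperones (-0.0146). Removal of the length trend also brought the median of genes with described cryptic promoters to -0.0316, the median of sirtuins and NAD salvage to 0.0477, the median of pyrimidine and purine synthesis to 0.0983, the median of RNA polymerase I and III to 0.1847, the median of zinc homeostasis to 0.0617 and the median of Ty retrotransposon genes to -0.7353. The Ty median was -0.4096 by limma on log2(FPKM + 1), and the median of snoRNA genes was -1.7942 with at least 5 CPM in 3 libraries. The median of tRNA genes was 1.4109 in a fit of only the 6 libraries compared. The cause of these shifts was not tested. OMS1 (adjusted p = 0.0189) and SNR63 (adjusted p = 0.0168) passed the threshold without set2Δ replicate 3. Length had a Spearman's rho of -0.0686 with the log2 fold change across 5824 genes.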
